A study of Mus musculus with 12 samples.

Results

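The chemokine ligands and receptors described here are the mouse genes whose symbols begin with Ccl, Cxcl, Ccr, Cxcr or Ackr followed by a digit, measured in liver RNA. Of 59 gene IDs with such a symbol, 2 receptor genes were left out by name and 10 had fewer than 10 reads summed over the 12 libraries, of which 7 had none. The remaining 47 genes, of 55359 in the table, comprise 18 CC ligands, 11 CXC ligands, 9 CC receptors, 5 CXC receptors and 4 atypical receptors. At the edge of the read minimum, Ccl20 was the lowest gene kept, with 10 reads, and Ccl17 the highest left out, with 8. The read minimum used total reads over all groups, so a gene without lean reads could enter only through the other groups. The rule used no test between groups, but members were chosen with earlier results of these data known.

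The samples are livers of male C57BL/6NTac mice in 3 groups of 4. Normal chow and a control mRNA were given to the lean group. Mice of the HFD control group ate a high-fat diet and also received control mRNA. The NM-FGF19 group ate the high-fat diet and received mRNA for NM-FGF19, an engineered non-mitogenic form of the gut hormone FGF19. All 3 groups were injected with lipid nanoparticles carrying their mRNA once a week for 6 weeks, so no group was free of nanoparticles, and livers were taken 24 h after the last dose. The labels call the mice 24 weeks old; the diet is said to have lasted 21 weeks up to the treatment, and elsewhere 28 weeks in all. Columns of the HFD control group carry the name mOX40L, and no source used here says whether its control mRNA was the one given to lean mice. A difference in control mRNA and the effect of diet cannot be told apart. Nothing in the labels says that the 4 replicates of a group were housed or processed apart, so p-values measure the spread between these samples.

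Library totals ran from 23743415 to 33257260 reads, and the 4 HFD control libraries were the deepest. CPM below is counts per 1000000 of a library's total scaled by edgeR's TMM factors (0.779 to 1.17, lowest in lean 3). Some single mice stand apart for several genes here. HFD control 3 was the highest of its group for 19 of the 34 chemokine genes tested, and NM-FGF19 4 for 17. Lean 3 was the highest lean mouse for 11, beside 10 for lean 2 and 9 for lean 4. Cxcl14 and Ackr3 were among the genes highest in lean 3. Of the values from 1 to 20 reads, 70.5% were even numbers over all genes and 85.4% among the chemokine genes, against 50.3% of values above 1000. How read pairs were counted is not stated in the sources, and low counts may overstate the number of independent molecules.

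Chemokines are small secreted proteins that set up concentration gradients along which leukocytes migrate. They are sorted into CC and CXC classes by the spacing of their first cysteines, and signal through G protein-coupled receptors of the matching class, while the atypical receptors bind and remove chemokines without the usual G protein signal. In liver, Kupffer cells, sinusoidal endothelium, stellate cells and hepatocytes all produce chemokines, and in fatty liver disease these draw monocytes, neutrophils and lymphocytes from the blood.

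Per length of exon, the most abundant of these genes were ligands. Cxcl12, which signals through CXCR4 and retains blood cell precursors and lymphocytes, had a mean length-scaled level of 43.2 CPM per kb in lean, 38.2 in HFD control and 44.6 in NM-FGF19 livers. Cxcl14, a homeostatic ligand of epithelia, had a lean mean of 43.1 CPM per kb, which rested on lean 3 and was 17.9 without it, and stood at 2.46 in HFD control and 5.52 in NM-FGF19 livers. Cxcl1, Ccl9 and Ccl6 had length-scaled lean means of 24.9, 17.4 and 17.1 CPM per kb, and that of Cxcl1 was 13.4 without lean 4. Cxcl12 made up 26.6% of the summed length-scaled level of the tested ligands in lean, 38.8% in HFD control and 41.4% in NM-FGF19 livers. Its share was 32.3% in lean livers without lean 3 and 45.4% in HFD control livers without HFD control 3. Among receptors, Ackr2, a scavenger of inflammatory CC ligands, had the highest lean mean, at 1.7 CPM per kb. It did not lead in the other groups. Ackr2 was at 1.39 CPM per kb in HFD control and 1.30 in NM-FGF19 livers, where Cxcr4 was at 1.48 and 1.49. The order of the lean ligands, drawn in the plot of length-scaled levels, depended on single mice: by its mean Cxcl14 was in place 2 with all 4 lean mice, in place 4 without lean 3 and in place 1 without any other lean mouse.

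**Figure D1:**
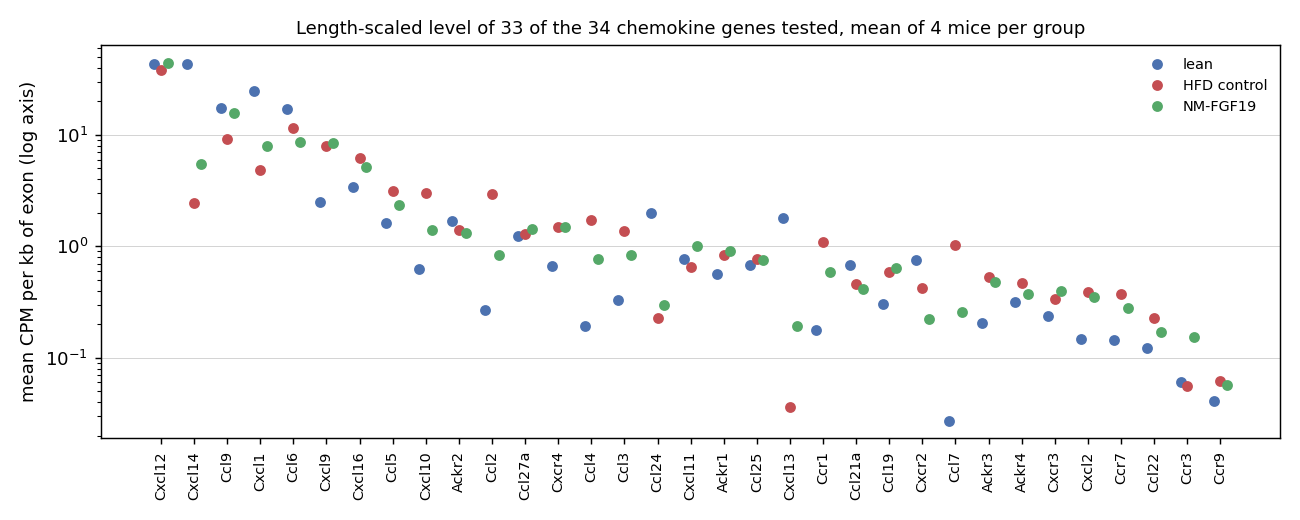
Length-scaled level of 33 of the 34 chemokine genes tested, as the mean CPM per kb of exon of 4 mice per group on a log axis, with genes ordered by their mean over the 12 mice. Cxcl12 lies between 38.2 and 44.6 in the 3 groups, and Cxcl14 is at 43.1 in lean mice (17.9 without lean 3) and 2.46 in HFD control mice; no error is drawn.

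Of the 47 genes, 34 passed edgeR's filter on low counts and were tested. The filter used all 3 groups. A gene near 0 in 1 group, such as Ccl7 in lean or Cxcl13 in HFD control livers, could thus pass only through the others. In HFD control against lean livers, 7 of the 34 rose (Ccl7, Ccl2, Ccl4, Cxcl10, Cxcl9, Ccr1 and Ackr3) and 4 fell (Cxcl13, Cxcl14, Ccl24 and Ccl9) at an adjusted p under 0.05 by edgeR's quasi-likelihood test. Over all 15274 genes tested, 5.04% rose and 3.29% fell, together 8.33%. The groups did not overlap for 7 of the 34 genes in the higher direction and 3 in the lower, against 8.40% and 6.89% of all genes, together 15.3%. The median log2 change of the 34 genes was 0.55 beside -0.02 over all genes; it was 0.32 without HFD control 3, the lowest without 1 library, and 0.20 over the 23 genes that passed the stricter filter of 1 CPM in at least 4 samples. With scaling by library totals alone the median of all genes moved to 0.29 and that of the chemokine genes to 0.82, and 11 rose and 3 fell beside 15.6% and 1.49% of all genes, so every log2 change here is relative to the TMM scale. Without lean 3 and HFD control 3 together, 2 of 35 genes tested rose (Ccr1 and Ackr3) and 3 fell (Cxcl13, Ccl24 and Ccl9), beside 2.10% and 1.02% of all genes, and their median was 0.26.

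**Figure D2:**
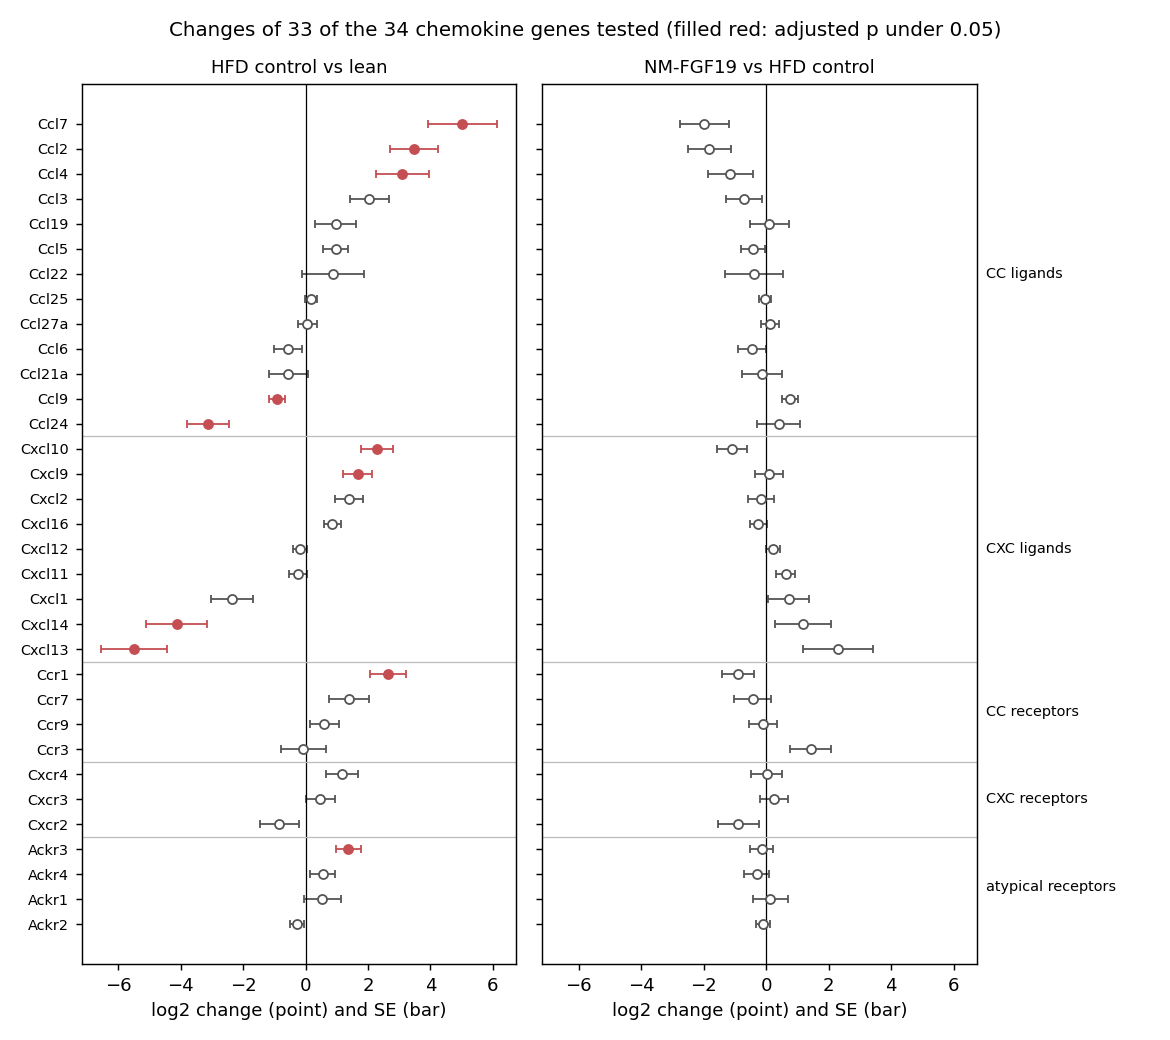
Log2 change (point) and its SE (bar) of 33 of the 34 chemokine genes tested, by class, for HFD control against lean and for NM-FGF19 against HFD control; filled red points passed an adjusted p of 0.05. The left panel has 11 red points, 7 to the right of 0 and 4 to the left, and the right panel has 0; the point of Ccl7 on the left rests on 2 lean reads, so its place depends on the prior count.

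Markers of several cell types also differed between these groups, and in whole liver fewer cells of a type and less RNA per cell cannot be told apart. Marker counts stand beside the 5.04% of all genes that rose and the 3.29% that fell between lean and HFD control livers. Of 8 markers of resident Kupffer cells, 6 fell between lean and HFD control livers, and their summed level was 910 to 1211 CPM in lean, 335 to 653 in HFD control and 374 to 850 in NM-FGF19 mice. Of 10 markers of monocyte-derived and lipid-associated macrophages, 7 rose, with a summed level of 130 to 190, 187 to 514 and 132 to 242 CPM. In NM-FGF19 against lean livers, 3 of the 10 were still called higher (Gpnmb, Itgax and Cx3cr1), beside 1.01% of all genes. Without overlap, 6 of the 10 were higher there, beside 5.46% of all genes. The highest sum was that of HFD control 3. Of the chemokine genes that rose, Ccl2, Ccl7, Ccl4 and Cxcl9 were highest in that HFD control mouse, Cxcl10 and Ackr3 in HFD control 1 and Ccr1 in HFD control 2. Of 5 markers of all leukocytes, 2 rose (Ptprc and Coro1a), with a summed level of 72.4 to 93.8 CPM in lean, 99.2 to 217 in HFD control and 83.3 to 121 in NM-FGF19 mice. Of 8 neutrophil markers tested, 1 fell, with summed levels of 22.8 to 85.6, 17.1 to 24.0 and 6.42 to 29.2 CPM, the highest in lean 3. In NM-FGF19 against lean livers, 2 of the 8 were called lower (Camp and Ltf), beside 0.484% of all genes. T cell markers had summed levels of 5.51 to 9.71, 8.53 to 11.8 and 5.54 to 10.8 CPM. Of 7 stellate cell markers 2 rose, with summed levels of 105.5 to 118 CPM in lean, 153 to 250.4 in HFD control and 144 to 302 in NM-FGF19 mice. Adipocyte markers summed to at most 0.279 CPM in lean mice, ranged from 0.812 to 21.1 CPM with HFD control and were at most 0.264 in NM-FGF19 mice. Nearly all of this was Cfd, the 1 of 5 that was tested, with a mean of 10.03 of 10.07 CPM in HFD control livers; Adipoq was at 0.0403 CPM in lean and 0.0145 in HFD control livers, Plin1 was at 0 in both groups and Lep at 0 in every library. Hepatocyte markers, the check of the tissue, summed to 75200 to 91300 CPM in lean, 48140 to 72750 in HFD control and 82020 to 125100 in NM-FGF19 mice, lower in every HFD control mouse than in any other mouse; of the 7, 1 fell between lean and HFD control livers, Ambp. The part of these cell types in the chemokine results was not tested.

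The CC ligands with the largest rises in HFD control livers were the monocyte attractants Ccl7 and Ccl2. Ccl2 was at 0.137, 0.65, 0.255 and 0.175 CPM in lean mice 1 to 4, at 3.12, 1.33, 7.77 and 1.25 CPM in HFD control mice and at 0.955, 0.462, 0.402 and 1.98 CPM in NM-FGF19 mice. Each HFD control mouse was above each lean mouse, and HFD control 3 alone gave 291 of the 499 reads of its group. Ccl2 rose by 3.48 ± 0.77 (SE, n = 4 and 4) on the log2 scale (edgeR adjusted p = 0.0184). Leaving out 1 of the 8 libraries gave changes from 2.66, without HFD control 3, to 4.17, without lean 2, and the call was lost without lean 4 (edgeR adjusted p = 0.0541). Ccl7, a close relative of Ccl2 encoded beside it on chromosome 11, had 2 reads in the 4 lean libraries, both in lean 4, and 123 reads in HFD control. Its level was 1.19, 0.348, 1.66 and 0.114 CPM in HFD control mice 1 to 4 and 0.0682, 0.231, 0.201 and 0.33 CPM in NM-FGF19 mice. All 4 HFD control values lay above the lean 4 value of 0.0874 CPM, the closest at 0.114. The ratio of Ccl7 in HFD control to lean was 39.5 (exact 95% interval for counting error 10.7 to 330.1), with an edgeR adjusted p of 0.0176. That interval treats each read as independent and would be wider if both reads of a pair were counted. With 2 lean reads, Ccl7 passed the low-count filter only through the groups where it was higher, so its call follows in part from the choice of genes. It was not tested when only the 2 groups compared entered the fit, nor under the stricter filter. Ccl7 lost the call without lean 2 (edgeR adjusted p = 0.0513) or HFD control 3 (edgeR adjusted p = 0.0502), and its fitted log2 change moved from 5.01 to 7.65 without lean 4, which leaves the lean group at 0.

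Ccl3, Ccl4 and Ccl5 attract monocytes, T cells and NK cells, and Ccl3 and Ccl5 act in part through CCR1. Ccl4 was at 0.0685, 0.0929, 0 and 0.35 CPM in lean, 1.74, 0.174, 2.08 and 0.54 CPM in HFD control and 0.409, 0.539, 0.703 and 0.396 CPM in NM-FGF19 mice. HFD control 1 and 3 were high, while HFD control 2 lay inside the lean range. Its rise of 3.10 ± 0.84 (SE) on the log2 scale passed the test (edgeR adjusted p = 0.0386), but the call was lost in 5 of 8 fits without 1 of the compared libraries (lean 1, 2 or 3, or HFD control 1 or 3; highest edgeR adjusted p 0.106). Ccl3, its neighbour on chromosome 11, showed the same pair of high mice, with 0.205, 0.139, 0.408 and 0.262 CPM in lean, 1.61, 0.319, 1.9 and 0.341 CPM in HFD control and 0.75, 0.50, 0.468 and 0.824 CPM in NM-FGF19 mice. It did not pass, at a log2 difference of 2.04 ± 0.62 (SE, edgeR adjusted p = 0.060). Ccl5, made mostly by T and NK cells, was at 0.959, 2.6, 1.22 and 1.4 CPM in lean, 3.17, 1.33, 4.94 and 2.56 CPM in HFD control and 2.49, 1.92, 2.01 and 2.57 CPM in NM-FGF19 mice. Lean and HFD control mice overlapped, and its log2 difference was 0.96 ± 0.39 (SE, edgeR adjusted p = 0.146). Without HFD control 2, both Ccl3 and Ccl5 passed (edgeR adjusted p = 0.0274 and 0.0486).

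2 CC ligands fell. Ccl24, an attractant of eosinophils that macrophages make, was at 1.99, 2.74, 1.33 and 4.28 CPM in lean, 0.475, 0.174, 0.213 and 0.313 CPM in HFD control and 0.546, 0, 0.669 and 0.33 CPM in NM-FGF19 mice. Every lean mouse was above every mouse of both other groups. Between HFD control and lean it fell by 3.11 ± 0.68 (SE) on the log2 scale (edgeR adjusted p = 0.0165), with a call in 21 of 22 alternative fits, the exception being the fit without HFD control 3 (edgeR adjusted p = 0.0502). Ccl9, a rodent myeloid chemokine that binds CCR1, was at 53.9, 66.1, 41.8 and 49.6 CPM in lean, 22.1, 21, 43.4 and 25.6 CPM in HFD control and 43.2, 59.1, 30.4 and 58.6 CPM in NM-FGF19 mice. HFD control 3 lay above lean 3, so the groups overlapped by 1 mouse. Its change of -0.91 ± 0.26 (SE, log2) was just past the threshold (edgeR adjusted p = 0.0482) and became -1.20 without HFD control 3 (edgeR adjusted p = 0.0163). The call was lost without any other single lean or HFD control library, and with scaling by library totals alone (-0.60, edgeR adjusted p = 0.151). Ccl6, a close relative of Ccl9 and the next gene on chromosome 11, was at 17.2, 28.6, 46.4 and 30.5 CPM in lean, 12.6, 12.6, 44.4 and 13.8 CPM in HFD control and 12.6, 11.8, 23.8 and 13.3 CPM in NM-FGF19 mice. HFD control 3 stood apart from the other 3 mice of its group, which were all below the lean mice, and the gene did not pass (log2 -0.55 ± 0.44 SE, edgeR adjusted p = 0.49).

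The other CC ligands tested did not pass between HFD control and lean. Ccl25, a gut-homing ligand, was at 5.07 ± 0.66 CPM (SD, n = 4) in lean and 5.72 ± 0.735 CPM in HFD control livers (log2 0.18 ± 0.19 SE, edgeR adjusted p = 0.623). Ccl19, Ccl21a, Ccl22 and Ccl27a, named here only so that each gene is accounted for, had log2 differences from -0.56 to 0.97 and adjusted p-values of 0.405 or more. Ccl19, Ccl21a and Ccl27a have near-identical copies in the mouse genome. The copies Ccl19-ps1, Ccl19-ps3, Ccl21b and Ccl27b had 0 reads in every library. How reads that match several copies were handled is not given in the sources.

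Among the CXC ligands, Cxcl9 and Cxcl10 rose in HFD control livers. Both are induced by interferons and attract activated T and NK cells through CXCR3. Cxcl10 was at 1.85, 1.21, 0.561 and 1.97 CPM in lean, 11.6, 2.26, 9.21 and 4.26 CPM in HFD control and 1.94, 2.58, 3.65 and 4.55 CPM in NM-FGF19 mice. The lowest HFD control mouse was just above the highest lean mouse. It rose by 2.27 ± 0.51 (SE) on the log2 scale (edgeR adjusted p = 0.0198), and missed the threshold without lean 2, HFD control 1 or HFD control 3 (highest edgeR adjusted p 0.0556). Cxcl10 shares exon sequence with Art3 on the opposite strand, which was at 1.33, 1.96 and 2.39 CPM on average in the lean, HFD control and NM-FGF19 groups and did not pass (edgeR adjusted p = 0.390 between HFD control and lean). Cxcl9 was at 11, 9.85, 4.79 and 4.5 CPM in lean, 23.5, 8.29, 36.6 and 27.4 CPM in HFD control and 13.2, 27.4, 36.6 and 25.1 CPM in NM-FGF19 mice. HFD control 2 was inside the lean range, and the other 3 HFD control mice were above it. Its rise of 1.66 ± 0.46 (SE, log2) had an edgeR adjusted p of 0.0471 and was called in 2 of 8 fits without 1 library, those without lean 1 or HFD control 2 (highest edgeR adjusted p 0.137, without HFD control 3). Cxcl11, the remaining CXCR3 ligand, which the GENCODE M21 annotation lists as a polymorphic pseudogene, was at 2.95 ± 0.599 CPM (SD) in lean and 2.49 ± 0.656 CPM in HFD control livers and did not pass (log2 -0.24 ± 0.29 SE, edgeR adjusted p = 0.666).

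The largest fall on the log2 scale was that of Cxcl13, the ligand that draws B cells into lymphoid follicles. It was at 1.3, 2.79, 2.04 and 2.1 CPM in lean mice and at 0, 0, 0.0534 and 0.114 CPM in HFD control mice, 186 against 6 reads. NM-FGF19 mice had 0.477, 0, 0.402 and 0 CPM, with 2 mice at 0 and 2 above every HFD control mouse. Cxcl13 fell by 5.49 ± 1.05 (SE) on the log2 scale (edgeR adjusted p = 0.0111) and was called in all 22 alternative fits, where the highest edgeR adjusted p was 0.0462. Cxcl14 was at 15.3, 45.2, 217 and 37.4 CPM in lean, 4.33, 4.35, 7.58 and 1.71 CPM in HFD control and 23.4, 2.39, 10.5 and 4.09 CPM in NM-FGF19 mice. Lean 3 gave 65.1% of the lean reads, yet the lowest lean mouse was above the highest HFD control mouse. Cxcl14 fell by 4.13 ± 0.98 (SE, log2, edgeR adjusted p = 0.0286), and changed by -2.83 without lean 3 (edgeR adjusted p = 0.0563). The call was also lost without any 1 of the 4 HFD control libraries (highest edgeR adjusted p 0.0820).

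Cxcl1 and Cxcl2 attract neutrophils through CXCR2 and are encoded side by side on chromosome 5. Cxcl1 was at 7.74, 48.4, 19.4 and 111 CPM in lean, 6.47, 6.43, 10.4 and 13.1 CPM in HFD control and 18.4, 12.2, 8.5 and 21.1 CPM in NM-FGF19 mice. Lean mice spread widely, with lean 4 high and lean 1 inside the HFD control range. The difference of -2.36 ± 0.68 (SE, log2) missed the threshold (edgeR adjusted p = 0.0546) and passed without lean 1 (-2.70, edgeR adjusted p = 0.0179). Cxcl2 was much lower, at 0.377, 0.232, 0.204 and 0.393 CPM in lean, 1.03, 0.667, 1.12 and 0.426 CPM in HFD control and 0.409, 1.12, 0.736 and 0.659 CPM in NM-FGF19 mice. All HFD control and NM-FGF19 mice were above all lean mice, the closest by a small margin, and the log2 difference of 1.40 ± 0.45 (SE) between HFD control and lean did not pass (edgeR adjusted p = 0.0707). The 2 neighbours thus had fitted differences of opposite sign, neither of which passed.

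Cxcl16, a membrane-anchored ligand that holds T and NKT cells in the liver, was at 10.2, 10.6, 8.36 and 11.9 CPM in lean, 17.2, 15.5, 29.4 and 12.5 CPM in HFD control and 15.1, 12.1, 12.1 and 23.4 CPM in NM-FGF19 mice. The groups of lean and HFD control mice did not overlap, but the log2 difference of 0.86 ± 0.27 (SE) did not pass (edgeR adjusted p = 0.067); it did without HFD control 4 (edgeR adjusted p = 0.0480). Cxcl12, the most abundant chemokine transcript, was at 492, 389, 261 and 271 CPM in lean, 304, 342, 291 and 312 CPM in HFD control and 438, 340.5, 238 and 441 CPM in NM-FGF19 mice. HFD control mice were close together within the wider lean range, and the log2 difference was -0.18 ± 0.23 (SE, edgeR adjusted p = 0.686).

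**Figure D3:**
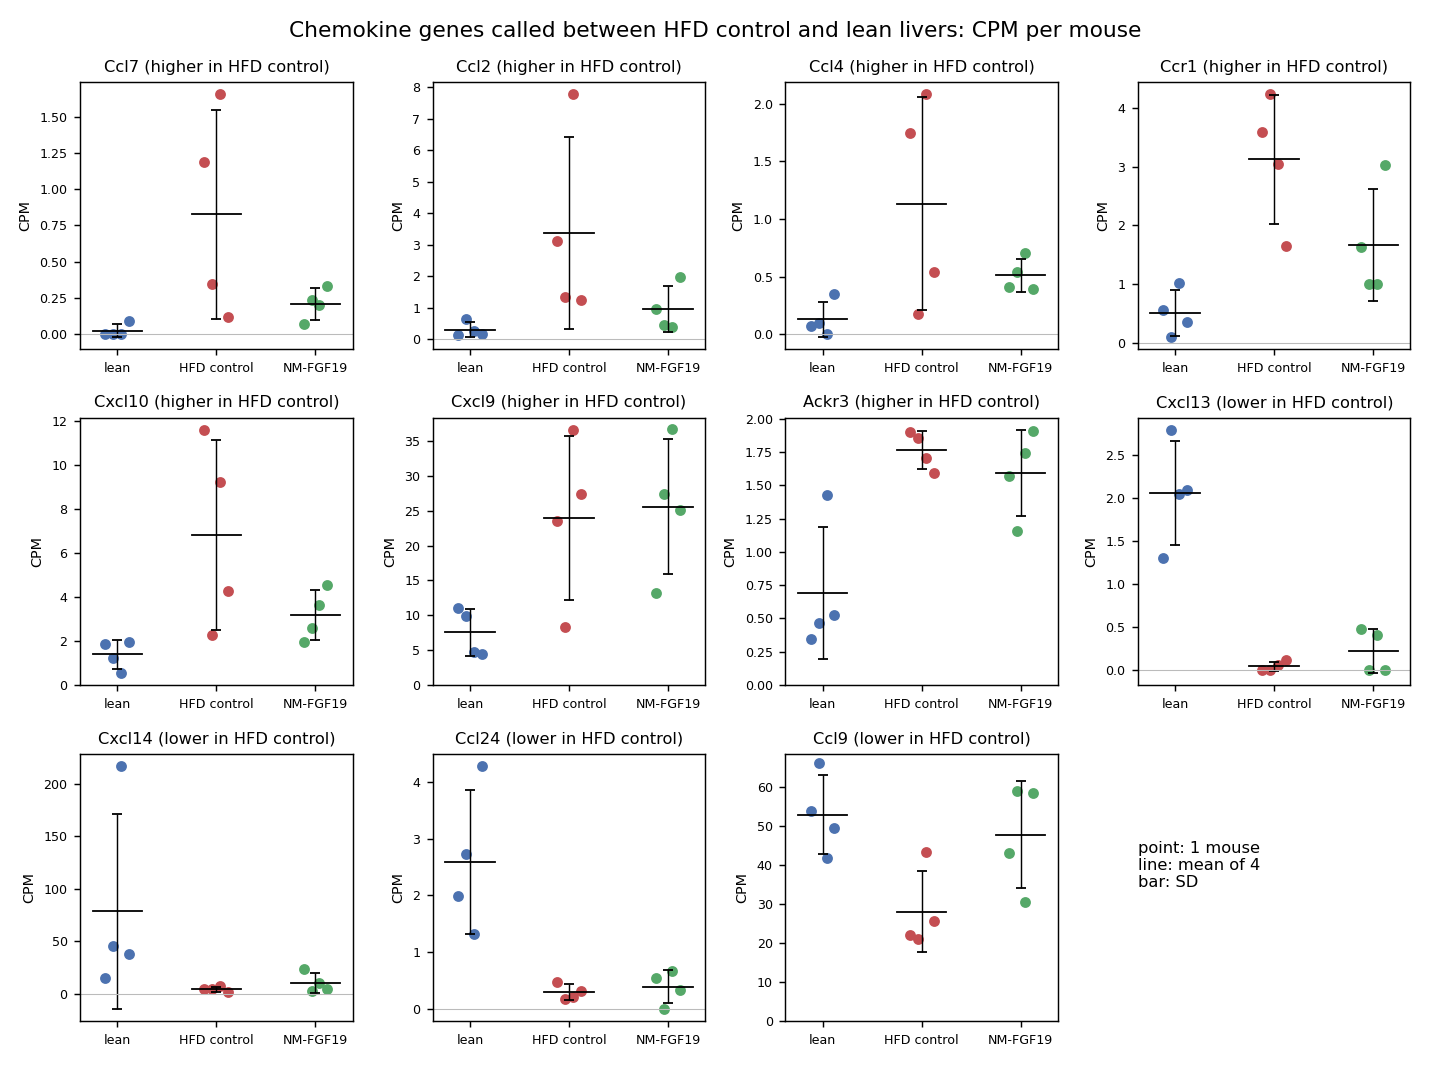
CPM of each mouse (points) for the 11 chemokine genes called between HFD control and lean livers, with the mean of 4 mice (line) and the SD (bar); each panel has its own linear axis. Cxcl13 and Ccl24 are near 0 in all HFD control mice and above 1 in all lean mice, while Ccl4, Cxcl9 and Ccl9 have overlapping lean and HFD control points.

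The promoters of both CXC ligands that rose and both that fell are shown because these pairs moved in opposite directions. Each line gives the 250 bases upstream of the RefSeq start site, 5′ to 3′ on the gene's strand, with coordinates of GRCm38.p6, a build older than that of the counts. Capitals mark matches, on either strand, to 3 short patterns: GAAA followed after any 2 bases by another GAAA (like an interferon-stimulated response element), GGG followed after any 5 bases by CC (like a site for NF-kappaB), and TGANTCA (an AP-1 site). Overlapping matches run together.
Cxcl9 (chr5:92328080-92328329, minus strand): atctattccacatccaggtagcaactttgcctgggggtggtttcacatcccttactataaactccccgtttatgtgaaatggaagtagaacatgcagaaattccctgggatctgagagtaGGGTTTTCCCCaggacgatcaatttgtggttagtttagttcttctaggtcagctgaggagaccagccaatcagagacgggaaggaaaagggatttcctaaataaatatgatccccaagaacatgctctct
Cxcl10 (chr5:92348890-92349139, minus strand): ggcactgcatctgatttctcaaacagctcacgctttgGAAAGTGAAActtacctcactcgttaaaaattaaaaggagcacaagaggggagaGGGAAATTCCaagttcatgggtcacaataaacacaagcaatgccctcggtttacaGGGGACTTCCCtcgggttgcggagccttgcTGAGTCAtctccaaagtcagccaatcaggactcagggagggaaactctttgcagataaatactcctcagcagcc
Cxcl13 (chr5:95956689-95956938, plus strand): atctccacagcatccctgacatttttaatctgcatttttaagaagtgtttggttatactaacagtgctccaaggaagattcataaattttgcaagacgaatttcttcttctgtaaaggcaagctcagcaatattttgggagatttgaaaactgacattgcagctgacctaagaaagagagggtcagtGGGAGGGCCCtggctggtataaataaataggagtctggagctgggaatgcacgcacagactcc
Cxcl14 (chr13:56296552-56296801, minus strand): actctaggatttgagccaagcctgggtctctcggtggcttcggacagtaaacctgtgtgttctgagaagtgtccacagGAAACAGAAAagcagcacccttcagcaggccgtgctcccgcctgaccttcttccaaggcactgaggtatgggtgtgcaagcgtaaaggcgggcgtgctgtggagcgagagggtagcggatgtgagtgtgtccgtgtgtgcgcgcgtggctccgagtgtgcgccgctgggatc
The Cxcl10 promoter held all 3 motifs, with GAAAGTGAAA at 213 to 204 bases before the start, matches to the NF-kappaB-like pattern at 159 to 150, 104 to 95 and 103 to 94 bases before it and TGAGTCA at 74 to 68. Cxcl9 had a pair of overlapping NF-kappaB-like matches between 130 and 120 bases before its start. The falling Cxcl13 also had an NF-kappaB-like match, at 63 to 54, and the falling Cxcl14 an interferon-response-like match, GAAACAGAAA at 172 to 163. Of 32851 RefSeq mouse promoters of this length, 2.98% held the interferon-response-like pattern, 45.8% the NF-kappaB-like pattern and 6.75% TGANTCA. The 33 chemokine genes with a RefSeq promoter had 37 such promoters. Of these 37, 3 held the first pattern (Ccl19, Cxcl10 and Cxcl14), 23 the second and 5 the third. These matches describe letters in the sequence, with no measure of binding.

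Among the receptors, Ccr1 and Ackr3 rose in HFD control livers. Ccr1, a receptor of monocytes, macrophages and neutrophils for Ccl3, Ccl5, Ccl6, Ccl7 and Ccl9, was at 0.548, 0.0929, 1.02 and 0.35 CPM in lean, 3.59, 4.23, 3.04 and 1.65 CPM in HFD control and 1.64, 1.0, 1.0 and 3.03 CPM in NM-FGF19 mice. Every HFD control mouse was above every lean mouse. Ccr1 rose by 2.64 ± 0.56 (SE) on the log2 scale (edgeR adjusted p = 0.0156), and Ccr1 and Cxcl13 were the only chemokine genes called in every alternative fit. Its log2 rise ranged from 2.31, without lean 2, to 3.22, without both lean 3 and HFD control 3. Ackr3 binds Cxcl12 and removes it. It was at 0.343, 0.465, 1.43 and 0.525 CPM in lean, 1.9, 1.85, 1.71 and 1.59 CPM in HFD control and 1.57, 1.16, 1.74 and 1.91 CPM in NM-FGF19 mice. HFD control mice were close together and above all lean mice, of which lean 3 was the highest. Its rise was 1.37 ± 0.40 (SE, log2, edgeR adjusted p = 0.0493), and 2.01 without lean 3 (edgeR adjusted p = 0.00742). Leaving out any other lean or HFD control library lost the call (highest edgeR adjusted p 0.122).

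No other receptor passed. Cxcr4, the receptor for Cxcl12, was at 1.3, 0.557, 2.29 and 0.612 CPM in lean, 2.01, 2.61, 4.46 and 1.62 CPM in HFD control and 2.32, 2.23, 1.3 and 4.95 CPM in NM-FGF19 mice, with overlap (log2 1.17 ± 0.51 SE between HFD control and lean, edgeR adjusted p = 0.178). Ccr7, which guides dendritic cells and naive T cells to lymph nodes, was at 0.205, 0.186, 0.408 and 0.35 CPM in lean, 0.634, 0.232, 1.2 and 0.91 CPM in HFD control and 0.205, 0.231, 0.569 and 1.19 CPM in NM-FGF19 mice (log2 1.38 ± 0.64 SE between HFD control and lean, edgeR adjusted p = 0.204). Only HFD control 2 fell within the lean range of Ccr7. Cxcr3, the T and NK cell receptor for Cxcl9 and Cxcl10, was at 0.685, 0.465, 0.408 and 0.0874 CPM in lean, 0.475, 0.58, 0.747 and 0.512 CPM in HFD control and 0.477, 0.77, 0.803 and 0.725 CPM in NM-FGF19 mice (log2 0.47 ± 0.47 SE between HFD control and lean, edgeR adjusted p = 0.588). Cxcr2, the neutrophil receptor for Cxcl1 and Cxcl2, was at 0.685, 2.32, 4.38 and 1.84 CPM in lean, 0.792, 1.97, 1.18 and 1.19 CPM in HFD control and 0.682, 0.154, 0.268 and 1.62 CPM in NM-FGF19 mice (log2 -0.84 ± 0.63 SE between HFD control and lean, edgeR adjusted p = 0.458). Cxcr2 overlapped widely between the groups. Ccr9, the receptor for Ccl25, had a log2 difference of 0.60 ± 0.47 (SE, edgeR adjusted p = 0.472).

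The other atypical receptors also did not pass. Ackr1, which moves chemokines across venules, was at 1.2, 0.743, 0.102 and 1.14 CPM in lean, 0.634, 1.33, 2.14 and 0.597 CPM in HFD control and 1.36, 1.08, 0.803 and 1.88 CPM in NM-FGF19 mice (log2 0.54 ± 0.58 SE between HFD control and lean, edgeR adjusted p = 0.62). It shares exon sequence with Cadm3 on the same strand, which did rise, by 0.80 on the log2 scale (edgeR adjusted p = 0.0372). Ackr2 was at 5.31 ± 1.12 CPM (SD) in lean and 4.36 ± 1.04 CPM in HFD control livers (log2 -0.28 ± 0.22 SE, edgeR adjusted p = 0.478). Ackr4, a scavenger of Ccl19, Ccl21 and Ccl25, was at 1.7 ± 0.507 CPM (SD) in lean and 2.5 ± 1.24 CPM in HFD control livers (log2 0.55 ± 0.40 SE, edgeR adjusted p = 0.435). Its exons overlap those of Acad11 on the opposite strand, which was at 192 CPM on average in lean and 259 CPM in HFD control livers, so its reads are uncertain where counting ignored strand.

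The 13 genes below the filter are given by summed reads and have no test. Ccl8, Ccl11 and Ccl12, which lie in the chromosome 11 cluster with Ccl2 and Ccl7, had 0 reads each in lean livers and 24, 17 and 20 in HFD control livers. Most of these came from HFD control 3, with 22, 13 and 16 reads. Against a floor of 3 reads over the lean group, HFD control livers were at least 5.14-fold higher in Ccl8, at least 3.64-fold in Ccl11 and at least 4.29-fold in Ccl12, for counting error only. Without lean reads, these genes and Cxcl5 below reached the minimum of 10 reads only through the other groups. The bounds thus follow in part from the choice of genes. They also treat each read as independent and would be lower if both reads of a pair were counted. NM-FGF19 livers had 2, 4 and 12 reads of Ccl8, Ccl11 and Ccl12. Cxcl5, a neutrophil attractant, had 0 reads in lean, 55 in HFD control and 32 in NM-FGF19 livers, at least 11.8-fold and 8.61-fold higher than the lean floor. HFD control 3 gave 51 of the 55 reads and NM-FGF19 4 gave 22 of the 32, so each bound rests largely on 1 mouse. Ccl20 had 0, 8 and 2 reads in the lean, HFD control and NM-FGF19 groups, and its receptor Ccr6 had 3, 22 and 8. Ccr4 had 0, 6 and 6 reads. Ccl28 had 14, 24 and 14 reads, its receptor Ccr10 11, 35 and 26, and Cxcl17 4, 5 and 2. Ccr1l1 had 10, 11 and 2 reads and Cxcr1 9, 15 and 2. Cxcr5, the receptor for Cxcl13, had 25, 27 and 27 reads, of which NM-FGF19 4 gave 25 in its group.

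The same 34 genes were then compared between NM-FGF19 and HFD control livers, which asks how mice given NM-FGF19 mRNA differ from mice given control mRNA on the same diet. An effect of NM-FGF19 and one of the control mRNA, whose columns are named mOX40L, cannot be told apart in this comparison. Here 0 of the 34 genes were called by edgeR, against 0.282% of all genes called higher and 0.151% lower, together 0.432%. Before adjustment, 2 had a higher level at p under 0.05 (Ccl9 and Ccr3) and 3 a lower one (Ccl2, Ccl7 and Cxcl10), beside 4.75% and 4.20% of all genes, and DESeq2 and limma voom also called 0. The count of 3 ran from 0, without HFD control 3, to 5, without NM-FGF19 4, in fits without 1 library, and was 1 without HFD control 1 or NM-FGF19 1, 2 or 3 and 0 with the replicate number as a block. In each of the 34 the groups overlapped, while they did not in 3.23% of all genes in the higher and 2.38% in the lower direction, together 5.62%. The median log2 difference of the 34 genes was -0.13, beside -0.0005 over all genes. Without 1 library it ran from -0.16 to 0.04; it was above 0 without HFD control 3 and below 0 without any other library.

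The gene nearest to the threshold was Ccl9, with a log2 difference of 0.77 ± 0.26 (SE, edgeR adjusted p = 0.345). NM-FGF19 1 and 3, at 43.2 and 30.4 CPM, lay within the HFD control range, and the other 2 NM-FGF19 mice lay above it. Ccl2 had a log2 difference of -1.82 ± 0.68 (SE, unadjusted p = 0.0187 by the edgeR quasi-likelihood test, adjusted p = 0.425). NM-FGF19 4 had more Ccl2 than HFD control 2 and 4, and the other 3 NM-FGF19 mice had less than every HFD control mouse. Ccl7 had a log2 difference of -1.98 ± 0.79 (SE, edgeR adjusted p = 0.458) and Cxcl10 one of -1.10 ± 0.48 (SE, edgeR adjusted p = 0.533). In both, HFD control 1 and 3 were above all NM-FGF19 mice and at least 1 other HFD control mouse was within their range. Cxcl13 differed by 2.31 ± 1.13 (SE, edgeR adjusted p = 0.588) and Cxcl14 by 1.17 ± 0.90 (SE, edgeR adjusted p = 0.788). The eosinophil receptor Ccr3, outside the rule for named genes and one of the 2 counted above, was at 0.0528, 0.029, 0.48 and 0.171 CPM in HFD control and 0.341, 0.616, 0.468 and 0.594 CPM in NM-FGF19 mice (log2 1.43 ± 0.66 SE, edgeR adjusted p = 0.557). Ccr1, Ackr3 and Cxcl9 differed by -0.90, -0.14 and 0.09 on the log2 scale, with adjusted p-values of 0.665, 0.962 and 0.985. A missed threshold does not show that these levels were alike, since the SE on the log2 scale was as large as 1.13 for Cxcl13.

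NM-FGF19 livers were also compared with lean livers, whose diet and mRNA both differed. edgeR called 0 of the 34 genes, against 1.01% of all genes called higher and 0.484% lower, together 1.49%. Before adjustment, 9 had a higher and 6 a lower level at p under 0.05, beside 9.16% and 7.58% of all genes. With DESeq2, 3 passed as higher (Ackr3, Ccr1 and Cxcl9) and 3 as lower (Ccl24, Cxcl13 and Cxcl14), beside 3.93% and 2.41% of all genes, and limma voom called 1, Cxcl13, lower. The groups did not overlap for 6 genes in the higher and 2 in the lower direction, against 5.46% and 4.84% of all genes, together 10.3%. Nearest to the threshold was Ccl24, with a log2 difference of -2.72 ± 0.67 (SE, edgeR adjusted p = 0.0631), which passed without NM-FGF19 2 (-2.31, edgeR adjusted p = 0.0478). Cxcl9 followed with 1.76 ± 0.46 (SE, edgeR adjusted p = 0.0863), and all 4 NM-FGF19 mice were above all lean mice. It passed without HFD control 2 (edgeR adjusted p = 0.0440), a library outside this comparison that enters the shared estimate of the spread. Cxcl13 had -3.18 ± 0.88 (SE, edgeR adjusted p = 0.0919), with every NM-FGF19 mouse below every lean mouse. Ackr3 had 1.23 ± 0.40 (SE, edgeR adjusted p = 0.134) and passed without lean 3 (1.86, edgeR adjusted p = 0.0239). The median log2 difference of the 34 genes was 0.52, beside -0.01 over all genes, and 0.21 over the 23 that passed the stricter filter. This comparison shares its lean mice with HFD control against lean, so the values of the 2 comparisons are not independent.

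Outside the symbols used for the choice, 11 genes of the chemokine system were followed, of which 10 were tested. Of these, 1 rose between HFD control and lean livers, Cx3cr1, the fractalkine receptor of monocyte-derived macrophages. It was at 1.72 ± 0.107 CPM (SD, n = 4) in lean, 14.3 ± 4.37 in HFD control and 8.74 ± 4.08 in NM-FGF19 livers, a rise of 3.05 ± 0.32 (SE, log2, edgeR adjusted p = 0.00139). It was also higher in NM-FGF19 than in lean livers, by 2.34 ± 0.32 (SE, log2, edgeR adjusted p = 0.00588). Of 37 genes that carry the signal of chemokine receptors, 36 were tested and 4 rose between HFD control and lean livers: Gng2, Elmo1, Arrb1 and Rgs19. Both counts stand beside the 5.04% of all genes that rose. The 2 with the smallest adjusted p were Arrb1, an arrestin that takes receptors off the membrane, with a log2 rise of 0.57 ± 0.14 (SE, edgeR adjusted p = 0.0255), and Gng2, a G protein gamma subunit, with 1.12 ± 0.27 (SE, edgeR adjusted p = 0.0260).

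How far the 11 calls between HFD control and lean livers rest on single mice is shown in the plot of adjusted p-values with a library left out. Ccr1 and Cxcl13 kept the call in 8 of 8 such fits, Ccl2 and Ccl24 in 7, Ccl7 in 6, Cxcl10 in 5, Ccl4 and Cxcl14 in 3, Cxcl9 in 2, and Ccl9 and Ackr3 in 1. The direction was the same in every one of these fits. HFD control 3 was the library whose removal cost the most calls, with Ccl7, Ccl4, Cxcl10, Cxcl9, Ackr3, Cxcl14 and Ccl24 lost. Calls over all genes also became fewer without HFD control 3, from 5.04% to 2.14% higher and from 3.29% to 1.33% lower. With any other lean or HFD control library left out, 2.61% to 5.96% of all genes rose and 1.27% to 3.87% fell.

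**Figure D4:**
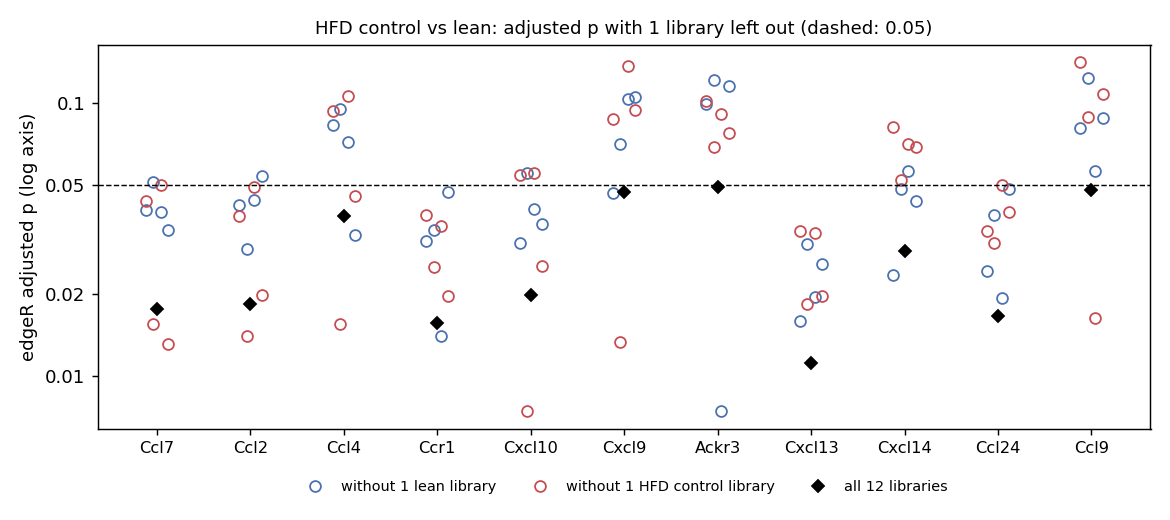
Adjusted p from edgeR for HFD control against lean (log axis) of the 11 called chemokine genes, with all 12 libraries (diamond) and without 1 lean or 1 HFD control library (open circles); the dashed line is 0.05. All circles of Ccr1 and Cxcl13 lie below the line, whereas 7 of 8 circles of Ackr3 and Ccl9 lie above it.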

How the data were processed

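RNA from 12 mouse livers was sequenced from stranded Illumina mRNA libraries made with 100 ng of total RNA, as read pairs of 101 nt, per the labels' protocols. The authors deposited raw read counts per gene, for which the submitters' processing notes name Trimmomatic, STAR, featureCounts and the build mm39. Their versions, the annotation, the strand mode and the handling of reads with several matches: not given in the sources used here. Of 55359 gene IDs, 52083 had a symbol in the name table, and the other 3276 held 0.515% of counts. All 12 columns matched a sample by name.

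The quasi-likelihood F test of edgeR 4.0.16 (R 4.3.3) was run on these counts (robust, TMM scaling, filterByExpr with a minimum count of 10), with the 3 groups in one fit and 9 residual degrees of freedom. P-values are 2-sided, adjusted by Benjamini-Hochberg over 15274 genes in each of 3 comparisons, at a threshold of 0.05. SEs are those implied by F. The script was tested on simulated data. Counting error alone, with each count taken as independent, is covered by intervals and by the floor of 3 counts. Exon lengths, chromosomes and neighbours came from GENCODE M21 (GRCm38), promoters from RefSeq.

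Members and lists were chosen with earlier results of these data known. Genes named are every member called, the 3 most abundant of each class, a set of 22 fixed symbols and those below the filter; 1 tested gene enters the counts and medians but is not reported here. In lists outside the members, named genes are the 2 called ones with the smallest adjusted p, apart from counts of 5 or fewer, whose genes were named after their values were seen. The counts of 2 libraries of a group never agreed within sampling noise (lowest chi-square per degree of freedom 37.5). Alternatives were DESeq2 1.42.0, voom of limma 3.58.1, other scalings and filters, fewer groups, a replicate block and fewer libraries.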

Additional observations from a re-analysis of the deposited data

Results flagged for a closer look

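Values of a single mouse that lay far from the other 3 of its group, by Dixon's criterion at the 95% level (gap to the nearest mouse over the whole range), were found for 5 of the 33 tested genes reported here. Chance alone marks about 1 in 20 groups of 4, and 3 groups were examined per gene. HFD control 3 was the mouse concerned for 2 genes. Its Ccl6, a myeloid chemokine, was at 44.42 CPM where the other HFD control mice had 12.62 to 13.79 CPM. Its Ccl22, a ligand for T helper cells, was at 1.495 CPM against 0.1137 to 0.3169 CPM. Lean 3 was concerned for Cxcl14, at 216.9 CPM against 15.34 to 45.25 CPM in the other lean mice, and for the scavenger Ackr3, at 1.428 CPM against 0.3425 to 0.5246 CPM. Ccl6 was also far out in NM-FGF19 3, at 23.75 CPM against 11.78 to 13.35 CPM. Ccl7 was at 0.08743 CPM in lean 4, which is 2 reads, where the other lean mice had none.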

How the results depend on the processing

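Between HFD control and lean livers, 7 chemokine genes rose and 4 fell, beside 5.04% and 3.29% of all genes. With limma voom 2 rose (3.93% of all genes), and with library totals alone 11 rose (15.6%). When only those groups entered the fit 3 rose (4.16%), and 2 did without both lean 3 and HFD control 3 (2.10%). With no filter on low counts 2 fell, beside 1.18% of all genes. Leaving out 1 library gave 2 to 8 higher and 2 to 4 lower, beside 2.14% to 5.96% and 1.27% to 3.87% of all genes. For NM-FGF19 against HFD control, every alternative called 0 in either direction, beside at most 1.15% of all genes higher and 0.746% lower. For NM-FGF19 against lean, with 0 calls, DESeq2 called 3 higher and 3 lower, beside 3.93% and 2.41% of all genes. Voom called 1 lower (0.288% of all genes) and the fit with no filter 1 lower (0.256%). The fit without lean 3 and HFD control 3 called 1 higher (1.07%). Leaving out 1 library gave 0 to 1 in each direction, beside 0.276% to 1.17% of all genes higher and 0.154% to 0.593% lower. The causes were not tested. Between HFD control and lean livers with the replicate number as a block, 1 rose (Ccr1) and 3 fell, beside 2.51% and 1.37% of all genes. The numbers do not pair the mice: 0 of 12 same-numbered pairs had deviations correlated above 0.1 (-0.363 to 0.077), and 0 libraries correlated best with their own number. Of 1823 log2 changes of single genes under alternatives, 1679 kept direction and side of the threshold, 77 lost a call, 29 gained one and 38 changed sign with neither fit past the threshold. Genes under about 1 CPM, such as Cxcr3 and Ccr7, rest on few reads; the part of depth in their results was not tested.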

Other observations

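Genes that lie side by side in the chemokine clusters did not all have the same result between HFD control and lean livers. On chromosome 11, Ccl2 and Ccl7 rose and their neighbours Ccl11, Ccl12 and Ccl8 were too low to test. In the stretch of Ccl5, Ccl9 and Ccl6 on the same chromosome, Ccl9 fell and its neighbours did not pass, and of the pair Ccl3 and Ccl4 only Ccl4 passed. Cxcl10 rose beside Cxcl11 on chromosome 5, which did not pass, and Ccr1 rose on chromosome 9, where Ccr1l1 was too low to test and Ccr3 did not pass. Whether neighbours differ from each other was not tested.

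Markers of dendritic cells summed to 9.03 to 13.5 CPM in lean, 14.5 to 18.8 in HFD control and 12.6 to 16.6 in NM-FGF19 mice. Markers of B and plasma cells, of which Cxcl13 attracts the B cells, summed to 4.81 to 8.41, 4.30 to 5.81 and 5.08 to 10.6 CPM in the 3 groups. Markers of eosinophils, basophils and mast cells, among which are targets of Ccl24, were all too low to test, at 0.175 to 0.480, 0.435 to 1.81 and 0.134 to 0.528 CPM. Exons of Cxcl16, Ccl27a, Ccl25 and Cxcr5 overlap those of a gene on the opposite strand (Zmynd15, Il11ra1, Elavl1 and Bcl9l), and none of these 4 genes passed between HFD control and lean livers (lowest edgeR adjusted p 0.153, for Zmynd15). Exons of Ccr9 also overlap those of Slc6a20a and AC165425.1, and those of Cxcl11 the pseudogene Gm2673, all on the opposite strand. On the same strand, Ccr9 shares exon sequence with the non-coding RNA gene Gm17200.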
